A study of Mus musculus with 2 samples.

Results

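The genes described here make, load, take up and break down GABA, the transmitter of striatal projection neurons and of forebrain interneurons. They are Gad1 and Gad2, which encode the glutamate decarboxylases that make GABA from glutamate, Slc32a1, which encodes the transporter that loads GABA into synaptic vesicles, Slc6a11, which encodes a plasma membrane transporter that takes GABA back up and is known mainly from astrocytes, and Abat, which encodes the mitochondrial GABA transaminase that breaks GABA down. They were studied through the peaks, that is, regions called accessible to a transposase, at their loci. A locus is the RefSeq span of a gene (GRCm38.p6, to which the build name mm10 refers) with 50 kb on each side, and every deposited peak overlapping it was taken. The 5 loci held 72 of the 87174 deposited peaks, and no peak fell into more than 1 locus.

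The peaks come from single-nucleus ATAC-seq of E14.5 striatum from wild-type mice, on a background that the labels give as C57BL/6J and CD1. There are 2 libraries in 1 group, and the labels do not say whether they came from separate embryos. Their deposited result is a shared list of positions with no count, score, nucleus or library, so read depth is unknown, no value below has a replicate error and no test was made. A list over all nuclei does not tell in which cells a region was accessible, and neither how many cells carried it nor how strongly.

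In the embryonic striatum, postmitotic neurons leaving the ganglionic eminences begin to make GABA, under homeodomain factors of the Dlx family that are known to act upstream of Gad1 and Gad2. The decarboxylases and the vesicular transporter mark a cell as able to release GABA. Uptake and breakdown are shared with glia and are used outside neurons too, Abat also being expressed in liver. All 13 striatum markers reported (Meis2, Foxp1, Foxp2, Bcl11b, Isl1, Gsx2, Dlx1, Dlx2, Six3, Sp9, Ppp1r1b, Drd1 and Drd2) had a peak at a gene end, against 67.3% of all protein-coding genes. So did 16 of 19 listed genes of other transmitters, so a gene-end peak does not identify the tissue.

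The promoter sequences are shown because each lay entirely within a peak and because the widths of those peaks differed between the genes. Each is the RefSeq window from 250 bases before to 50 bases after a start site, on the + strand of GRCm38.p6, 5′ to 3′. Capitals mark matches to the motifs searched. The window at Gad1 is chr2:70561879-70562178, at Gad2 chr2:22622077-22622376, at Slc32a1 chr2:158610508-158610807 and at Slc6a11 chr6:114130991-114131290. The table used held no window for Abat.
Gad1: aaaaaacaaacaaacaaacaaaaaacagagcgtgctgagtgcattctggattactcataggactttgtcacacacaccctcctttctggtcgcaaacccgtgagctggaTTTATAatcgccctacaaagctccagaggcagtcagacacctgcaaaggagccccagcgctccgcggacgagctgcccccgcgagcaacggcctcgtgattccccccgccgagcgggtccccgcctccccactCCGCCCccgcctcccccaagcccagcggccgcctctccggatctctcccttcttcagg
Gad2: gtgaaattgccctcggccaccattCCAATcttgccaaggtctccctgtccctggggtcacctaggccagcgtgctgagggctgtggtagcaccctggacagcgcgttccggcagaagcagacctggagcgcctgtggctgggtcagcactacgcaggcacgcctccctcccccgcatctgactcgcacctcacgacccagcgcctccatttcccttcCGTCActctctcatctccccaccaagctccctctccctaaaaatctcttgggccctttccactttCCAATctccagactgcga
Slc32a1: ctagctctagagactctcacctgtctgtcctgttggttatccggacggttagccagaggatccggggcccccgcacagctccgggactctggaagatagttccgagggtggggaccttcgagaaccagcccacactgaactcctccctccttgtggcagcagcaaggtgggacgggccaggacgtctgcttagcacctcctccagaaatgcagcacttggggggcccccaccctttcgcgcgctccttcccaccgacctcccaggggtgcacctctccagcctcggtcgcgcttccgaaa
Slc6a11: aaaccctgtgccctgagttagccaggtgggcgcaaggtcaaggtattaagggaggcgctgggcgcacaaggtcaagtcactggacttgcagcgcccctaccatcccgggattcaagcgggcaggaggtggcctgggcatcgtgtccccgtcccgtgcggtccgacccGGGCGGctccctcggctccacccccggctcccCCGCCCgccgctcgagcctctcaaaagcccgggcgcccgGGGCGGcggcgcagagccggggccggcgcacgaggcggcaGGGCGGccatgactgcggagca

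All 4 windows were rich in G and C, which made up 60.0% of the bases at Gad1, 61.3% at Gad2, 63.3% at Slc32a1 and 72.3% at Slc6a11. The median was 61.0% over the 16897 windows that a peak overlapped and 52.7% over all 32851 windows. CG dinucleotides, the sites of DNA methylation, stood at 0.849 of the number that the base composition gives at Gad1, 0.815 at Slc6a11, 0.574 at Slc32a1 and 0.543 at Gad2, against medians of 0.733 in windows overlapped by a peak and 0.384 in all windows. Gad1 and Slc6a11 thus lay above and Gad2 and Slc32a1 below the median of windows in peaks.

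The motifs, searched on both strands, were the homeodomain core TAATTA and its looser form TAATNA (which contains the stricter form). The others were the core of MEIS factor sites, TGACAG, the E-box of neural bHLH factors, CAGCTG, and the TATA box in the form TATAAA. General promoter motifs were the CCAAT box, the GC box in the form GGGCGG, and the core of the cAMP response element, TGACG. None of the 4 windows held either homeodomain form, the MEIS core or the E-box. The stricter homeodomain core was present in 5.29% of all windows and 2.91% of windows overlapped by a peak, the looser form in 26.5% and 15.3%, the MEIS core in 19.2% and 16.4% and the E-box in 16.3% and 16.1%. This says only that these letters are not in these 300 bases. The Slc6a11 window held 4 GC boxes and the Gad1 window 1, a motif found in 35.7% of all windows and 61.7% of those overlapped by a peak. The Gad2 window held 2 CCAAT boxes (37.4% of all windows and 36.4% of those overlapped by a peak) and 1 cAMP response element core (20.8% and 29.6%). The Gad1 window held a TATA box on the reverse strand (13.6% and 6.91%) that began 141 bases before the start site. No motif searched matched in the Slc32a1 window.

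A peak lay at a gene end of all 5 genes, that is, within 1000 bp of either end of the annotated span, as it did at 67.3% of protein-coding genes. By peak midpoint in place of overlap, 2 of the 5 genes had one, Slc6a11 and Abat, against 61.1% of protein-coding genes. All 4 promoter windows were overlapped by a peak, against 64.8% of the protein-coding genes that have a window in the table. Slc32a1 and Slc6a11 had a peak at both ends, a pattern seen in 14.8% of protein-coding genes. Gad1 and Slc32a1, 2 of 5 genes, had exactly 1 peak over the span, as did 33.9% of protein-coding genes. At each of the 5 genes the lower-coordinate end carried a peak, but the share of all protein-coding genes for this end alone was not summarised. This end is the start side of Gad1, Gad2, Slc32a1 and Slc6a11, all on the + strand, and the strand of Abat was not available.

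The width of the peak at this end differed between the genes. It was 11978 bp at Gad1, 10074 bp at Gad2 and 12004 bp at Slc32a1, against 2462 bp at Abat and 942 bp at Slc6a11. The median of the widest gene-end peak was 10074 bp over the 5 genes and 1741 bp over all protein-coding genes that have one. A broad peak, of the broadest 1% (872 peaks of at least 4480 bp), was therefore present within 1000 bp of both synthesis genes and the vesicular transporter gene, 3 of 5 genes, and of 3.95% of protein-coding genes. Among all peaks, that of Slc32a1 ranked 28 by width, that of Gad1 29 and that of Gad2 62. The smallest gap between neighbours in the list was 501 bp, which leaves unknown how the caller treated smaller gaps, so a broad peak need not be accessible throughout.

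**Figure D1:**
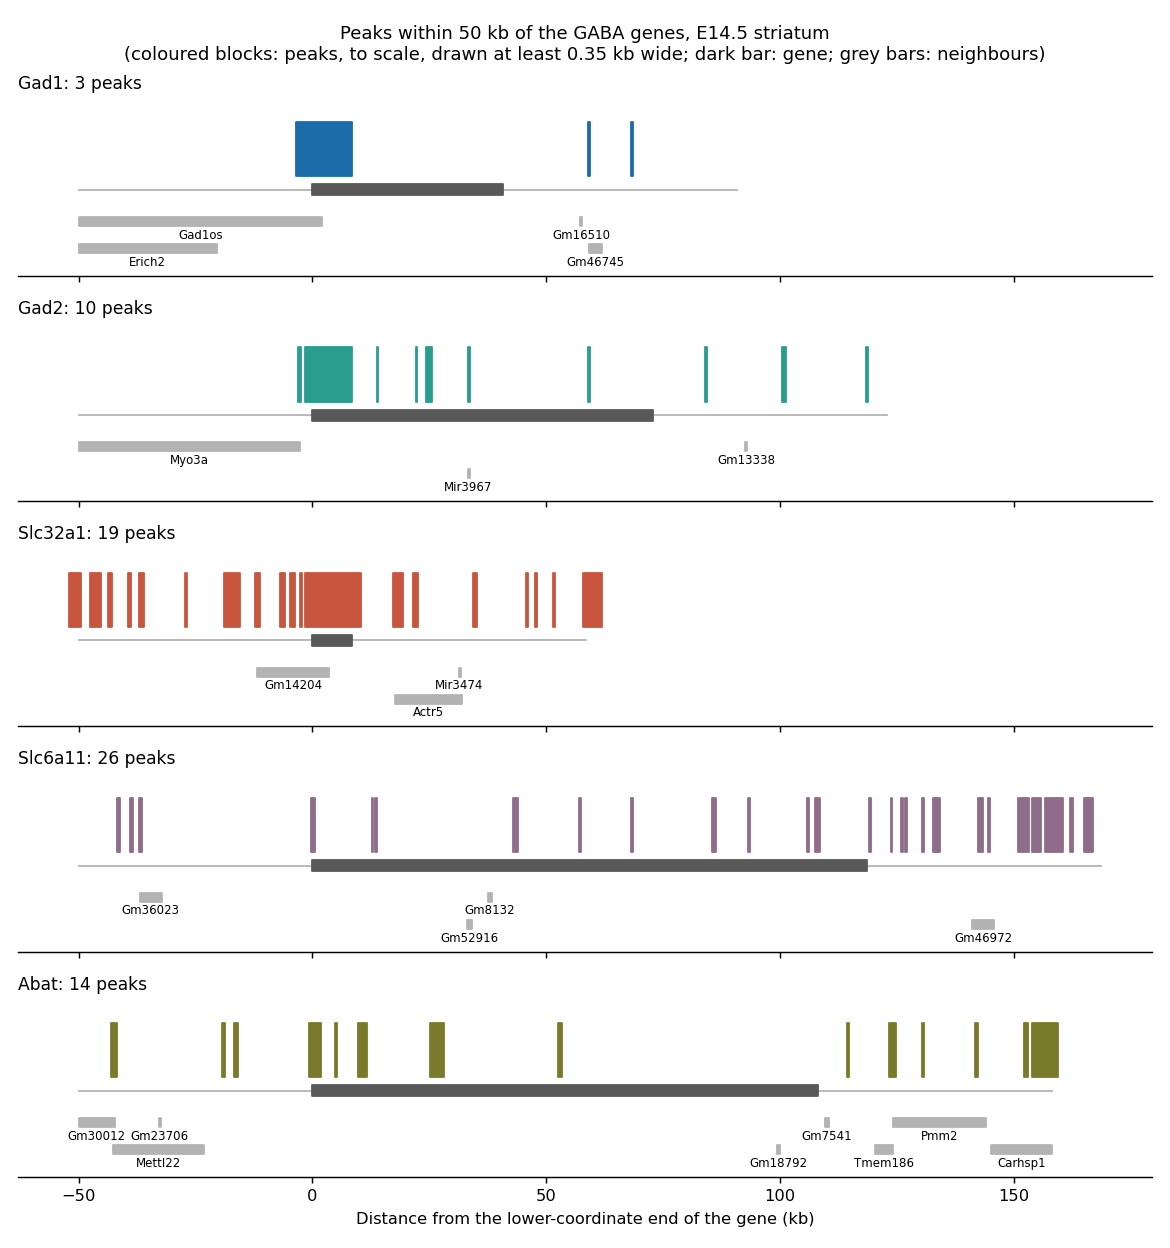
Peaks at the 5 GABA gene loci, by distance in kb from the lower-coordinate end of each gene (dark bar), with the neighbouring genes reported here as grey bars and peaks drawn to scale but at least 0.35 kb wide. Gad1, Gad2 and Slc32a1 each show a block of over 10 kb at that end, Gad1 has 2 other peaks in 140712 bp, and Slc6a11 has 26 peaks, 10 over the gene and 13 beyond its far end.

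Gad1 (chromosome 2, 70561303 to 70602014, 40712 bp) had a single peak over its span and almost nothing around it. The peak, from 70557824 to 70569802, ran from 4305 bp before to 7673 bp after the start site at 70562129. It also held the start site of Gad1os, a long non-coding RNA gene on the opposite strand, which lay 1228 bp downstream of that of Gad1, so that the annotated genes overlap. The only other peaks of the locus were 469 bp wide, 18.2 kb beyond the far end and at the lncRNA gene Gm46745, and 595 bp wide, 27.3 kb beyond it.

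The Gad1 locus thus held 3 peaks and 1 distal peak, meaning a peak at no gene end, which is 0.218 times the mean of 4.59 distal peaks over the 2177 protein-coding genes of similar length (36004 to 57306 bp, 1 of 10 classes). As many peaks as at Gad1 were present at 84.7% of those loci. With flanks of 100 kb the locus held 11 peaks, 5 of them distal. The nearest other peak lay 47.9 kb away on one side of the broad peak and 50.4 kb away on the other. Of the 872 broad peaks, 10 (this one included) were at least as far from their nearest neighbour, and the median distance was 1586 bp. Among the 859 protein-coding genes with a broad peak the median locus held 13 peaks, and 19 (2.21%) held 3 or fewer. By covered length the locus was not poor. Peaks covered 9.27% of it, against a median of 4.10% in the length class, and the broad peak made up 91.8% of that length.

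Gad2 (chromosome 2, 22621015 to 22693877, 72863 bp) had a peak of similar width, from 22619351 to 22629425, or 2976 bp before to 7098 bp after its start site at 22622327. In contrast to Gad1, it was followed by a row of narrower peaks. Within the gene lay 5 more, starting 13.7, 22.1, 24.2, 33.3 and 59.0 kb from the lower-coordinate end, with widths of 343, 343, 1442, 365 and 312 bp. That at 33.3 kb adjoins the microRNA gene Mir3967, and the other 4 lay at no gene end. The peak of 1442 bp, 24.2 to 25.6 kb into the gene, was the only one of these wider than 365 bp.

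Beyond the far end of Gad2, 3 peaks of 210, 864 and 505 bp lay 11.1, 27.6 and 45.5 kb away. On the lower-coordinate side, a peak of 721 bp lay over the end of Myo3a, which encodes a myosin known from the inner ear and whose end is 2763 bp from Gad2. The next peak on that side lay 282.0 kb from Gad2, inside Myo3a, so that the rest of the flank was free of peaks. The 7 distal peaks were 1.11 times the class mean of 6.30, and 38.2% of loci of similar length held as many peaks as the 10 at Gad2. Peaks covered 8.78% of the locus, against a class median of 3.92%, with 66.4% of that length in the broad peak.

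Slc32a1 (chromosome 2, 158607260 to 158615747, 8488 bp) was covered by peaks over 100% of its span. The peak from 158605608 to 158617612 extended beyond both gene ends, from 5150 bp before to 6854 bp after the start site at 158610758. The lncRNA gene Gm14204 starts 35 bp from that site on the opposite strand, head to head with Slc32a1, and its start lay under the same peak. Of the 2178 protein-coding genes of similar length (7437 to 11731 bp), 3 including Slc32a1 had their whole span covered, and the class median was 8.80%.

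**Figure D2:**
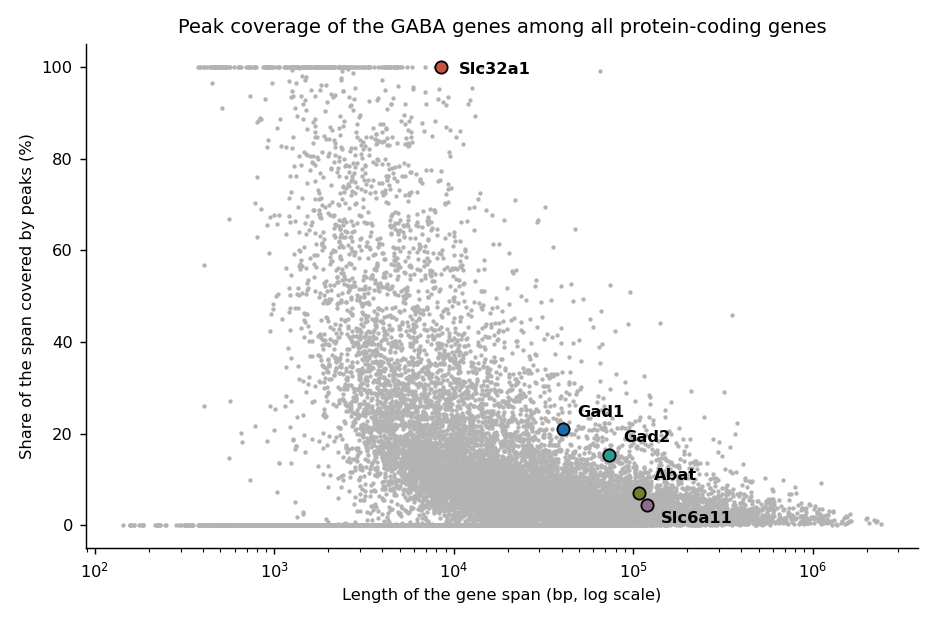
Share of the gene span covered by peaks (%) against gene length (bp, log scale) for all protein-coding genes in grey, with the 5 GABA genes named. Slc32a1 lies at 100%, Gad1 at 20.9%, Gad2 at 15.4%, Abat at 7.05% and Slc6a11 at 4.50%.

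Peaks were also dense around Slc32a1. Its locus held 19 peaks, a count that 2.25% of loci of similar length reached, and 15 distal peaks, or 4.24 times the class mean of 3.54. With flanks of 10 kb the locus held 5 peaks, and with 100 kb it held 33. On the lower-coordinate side lay 11 of the 19, 4 overlapping Gm14204 (3 within it and 1 across its far end) and 7 in the stretch beyond, which overlapped no annotated gene. The widest of these 7 measured 3423 bp (from 158588371 to 158591794, 18.9 to 15.5 kb from the gene), 2566 bp and 2428 bp, and the narrowest 271 bp. On the far side were 7 peaks, among them 2234 bp at an end of Actr5, which encodes an actin-related protein of a chromatin remodelling complex, and 3918 bp at an end of Ppp1r16b, a gene that begins just outside the locus. Peaks covered 27.9% of the locus, against a class median of 6.45%, and the broad peak held 39.6% of that length, less than at Gad1 or Gad2.

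Slc6a11 (chromosome 6, 114131241 to 114249886, 118646 bp) had the most peaks of the 5 genes and the narrowest peak at its start. That peak, from 114130952 to 114131894, reached from 289 bp before to 653 bp after the start site at 114131241. Inside the gene were 9 further peaks of 3 to 1103 bp, all distal, 3 of them under 100 bp wide (3, 12 and 82 bp). The widest were 1103 bp at 42.8 kb, 1078 bp at 107.4 kb and 1032 bp at 85.4 kb from the lower-coordinate end. A peak of 521 bp lay 0.4 kb beyond the far end. The span was covered to 4.50%. The median was 2.62% in the class of 108875 to 2390387 bp, the longest genes, and 26.9% of that class were covered as much. In the same class 16.3% of loci held as many peaks as the 26 here, and the median was 12. Slc32a1 had 17.5 peaks per 100 kb, against 11.9 at the Slc6a11 locus, which was the longest of the 5 (218646 bp).

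More of the 26 peaks of this locus lay beyond the far end than over the gene. From 0.4 to 48.3 kb beyond it were 13 peaks of 44 to 3811 bp, with a median of 619 bp, 6 of them wider than 1000 bp. The peaks over Slc6a11, the widest of which was 1103 bp, covered 5342 bp in all. Peaks in a flank can belong to other genes. On the far side, a peak of 391 bp lay at an end of the lncRNA gene Gm46972. A peak of 2347 bp lay at an end of another gene, not reported here, and those of 1922, 3811 and 1822 bp lay farther out. The count of 26 peaks therefore does not describe Slc6a11 alone. On the other side, 3 peaks of 689 to 781 bp lay 36.4 to 41.9 kb away, the nearest of them at the lncRNA gene Gm36023.

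At Abat (chromosome 16, 8513429 to 8621568, 108140 bp) peaks gathered in the part of the gene near its lower-coordinate end. A peak of 2462 bp from 8512755 to 8515217 lay over that end, and peaks of 439, 1903, 2796 and 702 bp started 4.8, 9.8, 25.3 and 52.6 kb from it. No peak was called over the next 60997 bp, which took in the other end of the gene. The peak of 2796 bp, 25.3 to 28.0 kb into Abat, was wider than the one at its end and lay at no gene end.

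Of the 9 peaks flanking Abat, several were at other genes. A peak of 1636 bp lay over the adjoining starts of Tmem186 and Pmm2, which encodes a phosphomannomutase, and one of 1326 bp over those of Mettl22 and Gm30012. The widest of the locus, 5664 bp, was a broad peak at the start of Carhsp1, 45.8 kb beyond Abat. The 10 distal peaks at Abat were 1.59 times the class mean of 6.30, and the 21 at Slc6a11 were 1.60 times a class mean of 13.1. Abat, at 108140 bp, is near the top of its class (57307 to 108874 bp). Slc6a11, at 118646 bp, is near the bottom of the next class, which reaches 2390387 bp. The 2 ratios thus rest on unlike classes and do not compare the 2 genes. Peaks covered 7.05% of the Abat span, against a class median of 2.86%, and 17.3% of the class were covered as much. As many peaks as the 14 of the Abat locus were present at 19.9% of loci in its class, where the median was 8.

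Over all 72 peaks the median width was 751 bp (quartiles 430 and 1480 bp), against 565 bp (363 and 1140 bp) in the whole list. Peaks at no gene end made up 75.0% of them (54 peaks), against 76.6% of all peaks, a share near that of the whole list. Of these 54, 37 lay in the flanks and 17 within the genes, namely 9 in Slc6a11, 4 in Gad2 and 4 in Abat, with none in Gad1 or Slc32a1. The median locus held 14 peaks over the 5 genes and 6 over all protein-coding genes, and the median share of the span covered was 15.4% against 3.77%. These medians are not adjusted for gene length. Peaks under 200 bp numbered 6 (8.33%, against 10.7% of all peaks), 4 of them at Slc6a11 and 2 at Slc32a1.

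**Figure D3:**
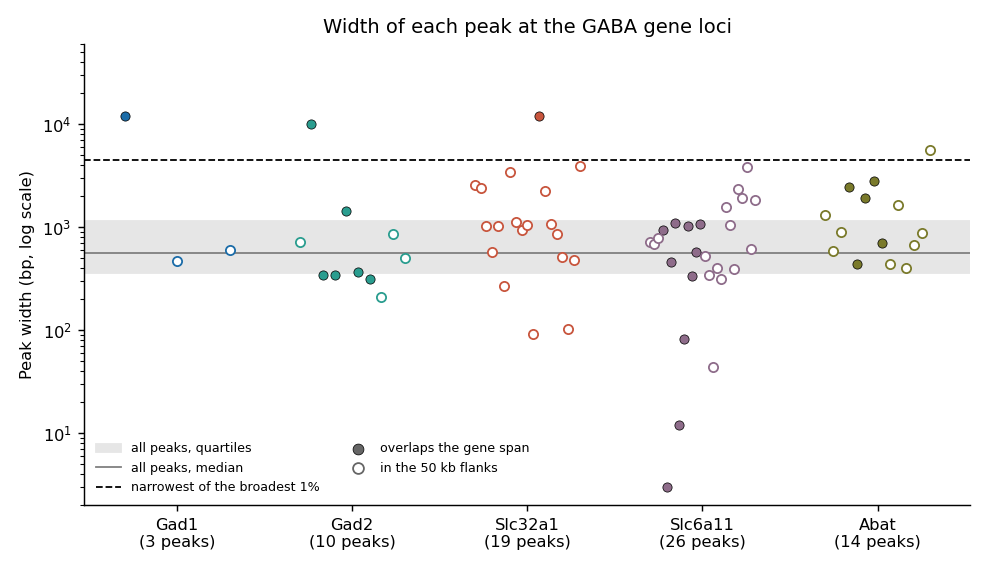
Width in bp (log scale) of each of the 72 peaks, by locus and from low to high coordinate, filled where the peak overlaps the gene and open in the flanks; the band and line give the quartiles and median of all peaks and the dashed line the narrowest of the broadest 1%. Gad1, Gad2 and Slc32a1 have 1 filled point each above the dashed line, and the only other point above it is the flank peak of 5664 bp at the Abat locus.

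The limit of 50 kb cut through peaks at 2 loci. At Slc32a1 the outermost peaks counted, of 2566 and 3918 bp, began 49.5 kb from the gene on either side and crossed the limit, so that by peak midpoint the locus held 17 peaks in place of 19. The nearest outside, of 924 and 527 bp, lay 52.6 and 54.2 kb away. The nearest peak left out at Gad2 was 1308 bp wide and 50.2 kb away, and at Gad1 1255 bp wide and 51.4 kb away, at an end of Erich2. At Abat the limit cut through the broad peak of 5664 bp, which lay 45.8 to 51.4 kb from the gene. At Slc6a11 and Abat the nearest peaks left out lay 54.3 and 52.2 kb away and measured 423 and 1043 bp.

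Other genes of GABA metabolism and signalling had a broad peak about as often as protein-coding genes in general. Of 26 such genes in 5 lists, 23 had a gene-end peak and 1 had a broad peak, against 67.3% and 3.95% of protein-coding genes. The gene with the broad peak was Nlgn2, which encodes the neuroligin of inhibitory synapses, with a peak of 5458 bp. The widest gene-end peak had a median of 1741 bp over protein-coding genes that have one. Over the listed genes that have one, the medians were 2272 bp (breakdown and glutamate supply), 2342.5 bp (other transporters), 2455.5 bp (chloride transporters and scaffold) and 3558.5 bp (GABA-B receptors). For vitamin B6 supply the median was 987 bp. With a gene that has none counted at 0 bp, the medians were 2245.5 bp for breakdown and glutamate supply and 618 bp for other transporters. By the same rule the median for chloride transporters and scaffold was 2065 bp. Among 14 genes of GABA breakdown and glutamate supply 13 had a gene-end peak and none a broad peak. Aldh5a1, which encodes the dehydrogenase that follows GABA transaminase, had 4 peaks in its locus and a widest gene-end peak of 2284 bp, close to the 2462 bp of Abat. The amino acid transporter genes Slc38a3, Slc38a1 and Slc1a3 had the most peaks, with 25, 16 and 15, and X-linked Slc38a5 had no gene-end peak.

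Among 3 other genes for plasma membrane transporters of GABA, taurine or betaine, the taurine transporter gene Slc6a6 had 14 peaks in its locus and a widest gene-end peak of 4067 bp. Slc6a13, which encodes a GABA transporter known from meninges and liver, had 5 peaks and 618 bp, and the betaine transporter gene Slc6a12 had 5 peaks and none at its ends. The widest gene-end peak at Slc6a11, of 942 bp, thus lay between those of Slc6a13 and Slc6a6. Both genes reported from the supply of vitamin B6, the cofactor of the decarboxylases and the transaminase, had a gene-end peak. It measured 1607 bp at Pdxk and 367 bp at Pdxp. The gene-end width does not describe all of Pdxp, where 2 peaks covered 55.2% of the span of 7358 bp.

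The chloride transporter gene Slc12a5, whose product sets the response of mature neurons to GABA, had 21 peaks in its locus and a widest gene-end peak of 2065 bp. Gphn, which encodes the gephyrin scaffold of inhibitory synapses, had 5 peaks and no gene-end peak over a span of 467448 bp. The GABA-B receptor genes Gabbr1 and Gabbr2 had 11 and 33 peaks and widest gene-end peaks of 3449 and 3668 bp.

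No listed gene of another transmitter had a gene-end peak as wide as those of Gad1, Gad2 and Slc32a1. Of 19 such genes 16 had a gene-end peak and 1 a broad peak, against 67.3% and 3.95% of protein-coding genes. The gene with the broad peak was Ache, which encodes acetylcholinesterase, with 4722 bp. The vesicular glutamate transporter genes, counterparts of Slc32a1, had widest gene-end peaks of 1104 bp (Slc17a6), 2354 bp (Slc17a7) and 367 bp (Slc17a8). In the same role for acetylcholine and monoamines, Slc18a3 had 3312 bp, shared with Chat, in which it lies, Slc18a2 had 2154 bp and Slc18a1 had 2009 bp. The glycine transporter genes had 2438 bp at Slc6a9 and no gene-end peak at Slc6a5, which had 12 peaks in its locus.

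Among monoamine genes, Ddc and Dbh, which encode enzymes of dopamine and noradrenaline synthesis, had no gene-end peak, with 16 and 10 peaks in their loci, and Th, which encodes tyrosine hydroxylase, had one of 560 bp. The list medians of the widest gene-end peak were 10074 bp for the 5 GABA genes, 3312 bp for acetylcholine, 1219 bp for glycine, 1104 bp for glutamate and 937 bp for monoamine genes, with a gene that has no such peak counted at 0 bp. Over the genes that have one, the medians were 2438 bp for glycine, where Slc6a9 alone had one, and 1050 bp for monoamine genes. Striatum markers had a median of 4807 bp, and 8 of 13 had a broad peak, against 3.95% of protein-coding genes. Dlx1 and Dlx2 both had 25417 bp, the width of what is likely 1 shared peak. At Foxp1 the broad peak was not at a gene end, where the widest peak was 3966 bp. The lists are short, and the differences between them were described and not tested.

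**Figure D4:**
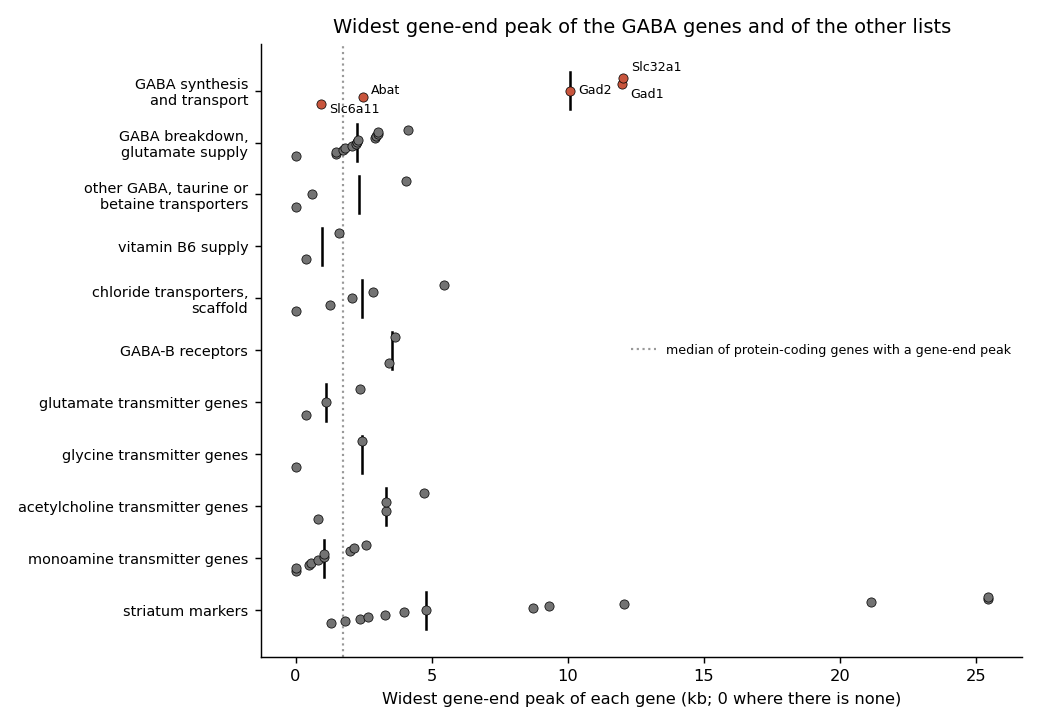
Widest gene-end peak in kb of each gene in the GABA list and 10 other lists, with genes that have none at 0, a bar for the list median over the genes that have one and a dotted line at the median of protein-coding genes that have such a peak (1741 bp). Gad1, Gad2 and Slc32a1 exceed every gene plotted other than 4 striatum markers, Dlx1, Dlx2, Meis2 and, by 51 bp over Slc32a1, Six3.

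In the order of the widest gene-end peak over all protein-coding genes, Slc32a1 was at place 26 and Gad1 at place 27, next to each other. Just above them stood Pou3f2 (12486 bp), which encodes a POU factor of neural cells, and Six3 (12055 bp), a homeodomain factor gene of the forebrain. Just below were Srcin1 (11962 bp), which encodes a regulator of Src kinase, and Olig2 (11519 bp), a basic helix-loop-helix factor gene of ventral progenitors. Gad2, at place 54, lay between Zbtb42 (10149 bp) and Zfp516 (10100 bp) on one side and Dennd6b and Plxnb2, which share a peak of 9985 bp, on the other. Plxnb2 encodes a semaphorin receptor.

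Abat, at place 3535, and Slc6a11, at place 12947, stood among many genes of nearly the same width. Beside Abat were Oaz1 (2464 bp), H2-Ab1 (2463 bp), Aff4 and H4c11 (both 2462 bp). Beside Slc6a11 were Hif1an and Polr2g (both 943 bp), Zfp853 (942 bp) and 2510002D24Rik (941 bp). The likeness is in this width alone.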

How the data were processed

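Single-nucleus ATAC-seq was performed on 2 libraries of E14.5 wild-type striatum. The authors deposited 1 list of peak positions. Per the submitters' processing notes, which give no role or order, Signac and Cell Ranger ATAC 1.2.0 were used with build mm10. The peak caller, any pooling of the libraries and the treatment of doublets are not given in the sources used here. Whether starts count from 0 or 1 is not stated. They were read as counting from 0, and positions are printed as deposited, so they can be off by 1 base. Depth per sample is unknown.

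Genes came from a RefSeq table of GRCm38.p6. After scaffold entries and repeated symbols were left out, 49595 of 49997 genes remained, 21774 of them protein-coding. Overlap meant at least 1 bp. A gene-end window reached 1000 bp inwards and outwards from each end of a span. Protein-coding genes were put into 10 classes of equal number by length. Promoter windows came from RefSeq, and 4 of 5 genes matched by symbol. Counting was tested on simulated data (1000 windows, 0 errors) with Python 3.11.15, numpy 2.4.6 and pandas 2.3.3.

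Genes named are the 5 members, neighbours with a span or end in a locus, listed genes with a broad peak, without a gene-end peak or richest in peaks, and the nearest 2 above and 2 below each member by widest gene-end peak. Aldh5a1, Slc6a13, vitamin B6, receptor, vesicular transporter and Th values were added as examples after their values were seen. A few genes are not reported here. Members and lists were chosen with earlier results of these data known. Alternatives were other flanks, windows, overlaps and width limits.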

Additional observations from a re-analysis of the deposited data

How the results depend on the processing

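Of 70 values under alternative settings, 54 stayed within 1.5 times the reported count or within the binomial interval of the reported share, and 16 did not. Some could not move, since Gad1, Gad2 and Abat had no peak under 200 bp. The interval takes each base as a separate trial, so it does not measure stability. Counts followed the flank, since a shorter flank searches fewer bases. With 10 kb, the loci of Gad1, Slc32a1, Slc6a11 and Abat held 1, 5, 14 and 6 peaks, those of Gad1, Gad2, Slc32a1, Slc6a11 and Abat held 0, 4, 3, 12 and 5 distal peaks, and all loci held 33 distinct peaks. With 100 kb, Gad1 had 11 peaks (5 distal), Slc32a1 had 33 (28 distal) and all loci had 113. When the midpoint of a peak had to lie in the gene-end window, 2 of 5 genes had a gene-end peak, since the midpoints of the broadest peaks lie inside the genes. With the broadest 5% of peaks 4 of 5 genes had a broad peak, Abat being added, against 17.3% of protein-coding genes, and 3 did when overlap with the span was required. Counts of peaks of at least 200 bp, of joined peaks and of distal peaks with a 2500 bp window also stayed within that limit. No replicate could be left out, because the list carries no library. No paired analysis was possible because the result comes from no test and there is 1 group. Peak heights and differences between the libraries were not analysed here.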
